A study of Mus musculus with 2 samples.

Results

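Genes of the axonemal dyneins and of motile cilia were followed in nuclei of the stria vascularis, the ion-transporting epithelium of the cochlear lateral wall. Members were all features whose symbol starts with Dnah, Dnai, Cfap, Rsph, Tekt or Drc, together with Hydin, Spag16, Spag17, Foxj1, Ccdc39, Ccdc40 and Cdhr3, provided that at least 1 of the count matrices held 10 or more unique molecular identifiers (UMIs) of them. Of 48816 features, 65 fitted the symbols and 56 reached the minimum. Just above it stood Cfap58 with 12 UMIs and Dnaic2 with 13 in the deeper matrix, and just below it Drc7 with 9 and Cfap126 with 8. The other features below it were Cfap73, Cfap161, Rsph6a, Tekt3, Tekt4, Tekt5 and the antisense entry Dnah2os.

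Motile cilia beat because dynein arms, fixed along the microtubule doublets of the axoneme, walk on the neighbouring doublet. Outer and inner arms carry the heavy chains that hold the motor, while radial spokes, the nexin-dynein regulatory complex and the central apparatus shape the beat. Cells with many motile cilia switch these genes on together under Foxj1, whereas most other cells carry a single primary cilium that lacks the arms. Both kinds of cilium are built by intraflagellar transport. Airway, middle ear, oviduct and ventricular linings are known for motile cilia, and the stria vascularis is not.

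Both libraries came from CBA/J mice at postnatal day 30, with no transgene or treatment stated. In the MethFix library, nuclei were isolated and then fixed in methanol, from 5 to 6 pooled mice as the labels give it. In the RNAlater library, the tissue was kept in RNAlater before the nuclei were isolated, from 10 pooled mice as the labels give it. The methods of the study state a smaller number of mice for the RNAlater library, and which is right was not settled here. Each preservation method thus had 1 library of pooled animals, so no test between methods was possible.

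The MethFix matrix held 4748 barcodes and 21027671 UMIs, with a median of 3469 UMIs per barcode, and the RNAlater matrix 3868 barcodes and 17681824 UMIs, with a median of 3998.5. The libraries shared 3323 barcodes. In those, 6338 of the 7783 MethFix member UMIs recurred in RNAlater for the same gene in the same barcode, or 81.4%. The shared barcodes were therefore counted as 1 sample, and the RNAlater values are given as a second table of much the same nuclei and not as a replicate. Barcodes were split into those found only in MethFix (1425, named MethFix-only), those found in both and counted in either matrix (MethFix shared and RNAlater shared), and those found only in RNAlater (545). All intervals below are exact 95% intervals that cover counting error only.

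Member UMIs were more frequent in MethFix-only than in shared barcodes. Levels are given as CPM, the UMIs of a gene or list per 1000000 UMIs of all genes in the same set of barcodes, and are compared between sets and not between genes. Members made up 899 CPM (877 to 922) in MethFix-only barcodes, 555 (543 to 568) in MethFix shared barcodes and 594 (582 to 605) in RNAlater shared barcodes. RNAlater-only barcodes held 222 member CPM (189 to 259), with a median of 48.4% mitochondrial UMIs against 1.74% in MethFix-only barcodes. The summed ratio of MethFix-only to MethFix shared was 1.62. Without the cilia-rich barcodes described further on, whose removal lowers the members by construction, it was 0.928. The median ratio over all features tested was 0.909, so the members' ratios are read against a general shift slightly below 1.

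The excess was uneven between members. Of 55 members with at least 10 UMIs over both sets, 32 were higher past 2-fold in MethFix-only barcodes and 1 was lower past 2-fold, and their median ratio was 3.14. Over all 17031 features tested, 4.73% were higher and 9.91% were lower past 2-fold. Rsph1 was the member under this minimum. Rsph4a, Cdhr3, Dnah1, Cfap58, Cfap221, Tekt1 and Ccdc40 had fewer than 10 UMIs in MethFix shared barcodes and in RNAlater. They became members only through the MethFix-only barcodes, so their places among the 32 are a description. By role, members higher past 2-fold were 6 of 9 inner-arm heavy chains, 2 of 5 outer-arm heavy chains, 5 of 8 central apparatus and 4 of 9 radial spoke genes.

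**Figure D1:**
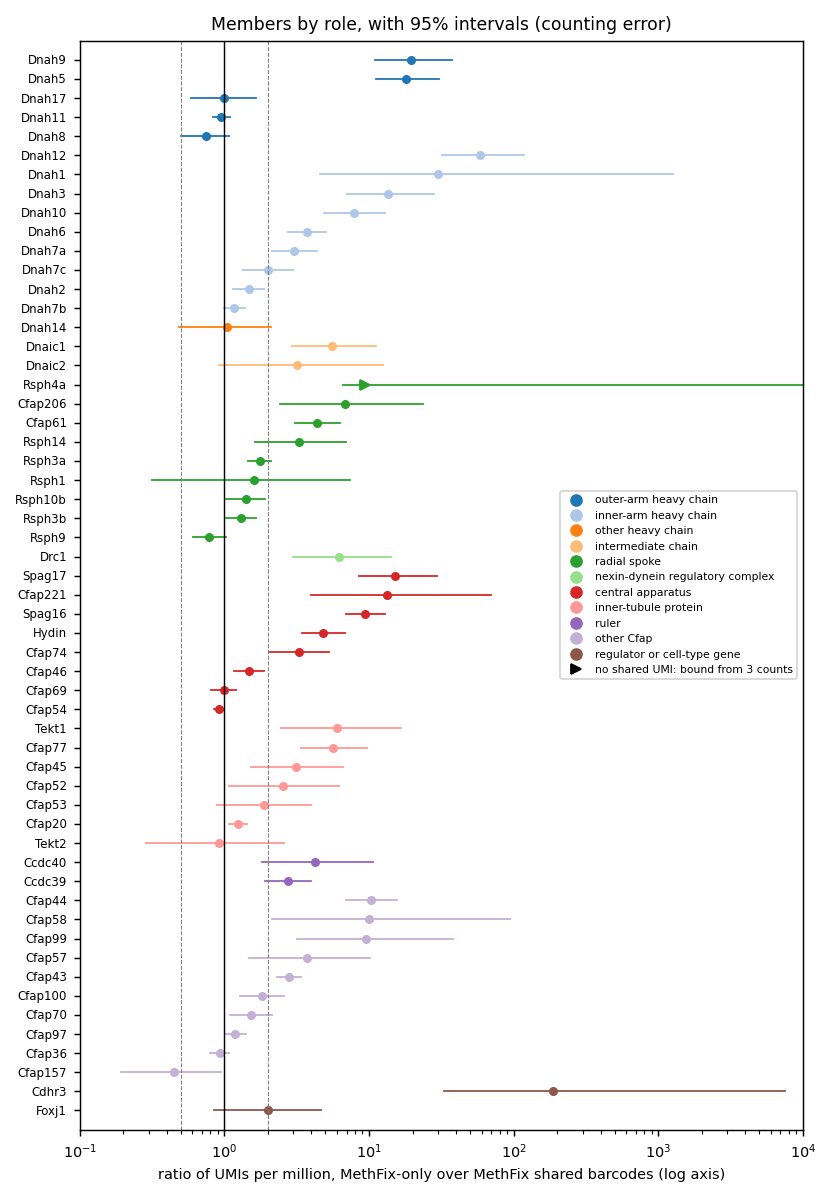
Ratio of CPM in MethFix-only over MethFix shared barcodes for each member (points, log axis), grouped by role, with exact 95% intervals (lines) and dashed lines at 2-fold. Cdhr3, Dnah12, Dnah1, Dnah9, Dnah5 and Spag17 lie above 15, while Cfap54, Dnah11, Cfap69 and Cfap36 lie near 1.

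Among the outer-arm heavy chains, which are the motors of the outer arm, the split was sharp. Dnah5 (chr15:28203752-28472052, plus strand, GRCm38) had 170 UMIs or 24.2 CPM in MethFix-only barcodes, 19 or 1.36 CPM in MethFix shared barcodes and 27 or 1.59 CPM in RNAlater shared barcodes. Its ratio of MethFix-only to shared was 17.9 (11.1 to 30.4). Dnah9, which pairs with Dnah5 in the distal part of airway cilia, had 126, 13 and 24 UMIs in the same sets and a ratio of 19.4 (10.9 to 37.4). Dnah11, the pairing partner of Dnah5 in the proximal part of such cilia, showed no such excess. It had 46.4 CPM in MethFix-only, 48.8 in MethFix shared and 50.3 in RNAlater shared barcodes, from 325, 684 and 852 UMIs, and a ratio of 0.95 (0.830 to 1.09). Dnah8 and Dnah17, heavy chains best known from sperm flagella, had ratios of 0.742 (0.50 to 1.08) and 0.999 (0.592 to 1.65).

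Inner-arm heavy chains ranged from near 1 to far above it. Dnah12 (chr14:26693274-26891703, plus strand) had 320 UMIs in MethFix-only barcodes against 11 in MethFix shared and 11 in RNAlater shared barcodes. These were 45.6, 0.785 and 0.649 CPM, and the ratio of MethFix-only to shared was 58.1 (32.1 to 118). Dnah3 (ratio 13.4, 7.10 to 28.1) and Dnah10 (ratio 7.82, 4.90 to 13) were also high in MethFix-only barcodes. Dnah2, which forms an inner arm with Dnah10, had a ratio of only 1.47 (1.14 to 1.89) from 112 and 152 UMIs. Dnah7b, at 223 and 380 UMIs, had a ratio of 1.17 (0.990 to 1.39). Dnah7a, Dnah7b and Dnah7c are near-identical copies on chromosome 1, so how reads were divided between them is uncertain. The remaining heavy chain, Dnah14, had 13 and 25 UMIs and a ratio of 1.04.

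The smaller arm and linker parts were scarce in shared barcodes. Dnaic1, an outer-arm intermediate chain, had 39 UMIs in MethFix-only, 14 in MethFix shared and 17 in RNAlater shared barcodes, a ratio of 5.57 (2.96 to 11.1), and the other intermediate chain, Dnaic2, had 8, 5 and 11. Drc1, the only member of the nexin-dynein regulatory complex that reached the minimum, had 31, 10 and 12 UMIs and a ratio of 6.20 (2.96 to 14.2). Ccdc39 and Ccdc40, which together set the spacing of arms and spokes along the doublet, had ratios of 2.74 (1.90 to 3.97) and 4.22 (1.82 to 10.6). Every gene in this paragraph was thus above 2, though the interval of Dnaic2 (0.922 to 12.4) reached below 1.

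Radial spokes and the central apparatus each held both kinds of gene. Rsph4a, a spoke-head protein, had 14 UMIs in MethFix-only barcodes and 0 in both shared sets. Its ratio was 9.33 with a floor of 3 counts in the empty set, and its exact lower limit was 6.63. Rsph9, its partner in the spoke head, had 83, 211 and 291 UMIs in MethFix-only, MethFix shared and RNAlater shared barcodes and a ratio of 0.786 (0.602 to 1.02). The spoke stalk genes Rsph3a and Rsph3b, which share sequence and may share reads, had ratios of 1.75 (1.46 to 2.10) and 1.31 (1.03 to 1.65). In the central apparatus, Spag17 had 99, 13 and 27 UMIs in the same order and a ratio of 15.2 (8.50 to 29.6), and Spag16 a ratio of 9.43 (6.99 to 12.9). Hydin, a very large projection protein, followed with 4.80 (3.42 to 6.81). Cfap54, also a projection protein and the source of 3722 of the 14088 member UMIs of MethFix, had 167 CPM in MethFix-only, 182 in MethFix shared and 185 in RNAlater shared barcodes and a ratio of 0.915 (0.853 to 0.981). Cfap69 had a ratio of 0.989 (0.808 to 1.21).

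Cfap46, a further projection protein of the central apparatus, was high in RNAlater. It stood at 12.6 CPM in MethFix shared, 24.8 in RNAlater shared and 61.3 (44.7 to 82.0) in RNAlater-only barcodes, from 177, 421 and 45 UMIs. The ratio of RNAlater shared to MethFix shared was 1.97 (1.65 to 2.36). Cfap46 overlaps Gm4459 on the same strand, and the part of that overlap in its counts was not tested.

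The inner-tubule proteins and the remaining Cfap genes ranged from below 1 to about 10. Cfap20, which seals the inner junction of the doublet, had 330, 533 and 645 UMIs in MethFix-only, MethFix shared and RNAlater shared barcodes and a ratio of 1.24 (1.08 to 1.42). Cfap77 had a ratio of 5.62 (3.36 to 9.73) and Cfap53 one of 1.88 (0.889 to 3.96). Cfap36, a binding partner of the small GTPase Arl3, had 267, 576 and 700 UMIs and a ratio of 0.927 (0.798 to 1.07). Cfap97 had 1.19 (1.01 to 1.41). Cfap44 and Cfap43, which tether an inner arm to the doublet, had ratios of 10.3 (6.94 to 15.6) and 2.80 (2.31 to 3.40). Cfap157 was the member lower past 2-fold, with 9 UMIs against 40 and a ratio of 0.450 (0.192 to 0.942), and was named after its value was seen.

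Cdhr3, a cadherin of ciliated airway cells that serves as a rhinovirus receptor, was the most skewed member by this ratio. It had 94 UMIs in MethFix-only barcodes, 1 in MethFix shared, 2 in RNAlater shared and 0 in RNAlater-only barcodes. Its ratio of MethFix-only to shared was 188, with an interval of 32.9 to 7499 because it rests on a single shared UMI. Foxj1, the transcription factor at the head of the programme, was scarce everywhere, with 13, 13 and 11 UMIs in MethFix-only, MethFix shared and RNAlater shared barcodes. Its ratio of 2.00 (0.854 to 4.68) lay just under the 2-fold line.

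Counting how many different members a barcode held showed that the excess sat in few barcodes. A barcode with at least 10 members was called cilia-rich. There were 51 of these among 1425 MethFix-only barcodes, or 3.58% (2.68 to 4.68), and 5 among 3323 MethFix shared barcodes, or 0.150% (0.0489 to 0.351). In RNAlater, 12 shared barcodes passed and none of the 545 RNAlater-only barcodes did, for which the exact upper bound is a share of 0.675%. At 20 or more members, 31 MethFix-only barcodes and 1 MethFix shared barcode remained, with none in RNAlater.

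By number of members, most barcodes with 20 or more stood apart from the rest of the MethFix-only set. No MethFix-only barcode held 17 to 19 or 21 to 23 members, and 30 held 24 or more, up to 43. The shallowest of those had 1053 UMIs. Among MethFix-only barcodes with at most 8000 UMIs and fewer than 20 members, the most members in a barcode was 9. The 24 MethFix barcodes with 10 to 19 members had a median of 25926.5 UMIs, and 23 of them held over 8000, so these mostly passed the minimum of 10 at high depth. The 32 barcodes with 20 or more ranged from 1053 to 134970 UMIs. Their member levels ranged from 628 to 75024 CPM, against 670 over all MethFix barcodes. At least the lowest of them was thus no richer in members than the library.

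**Figure D2:**
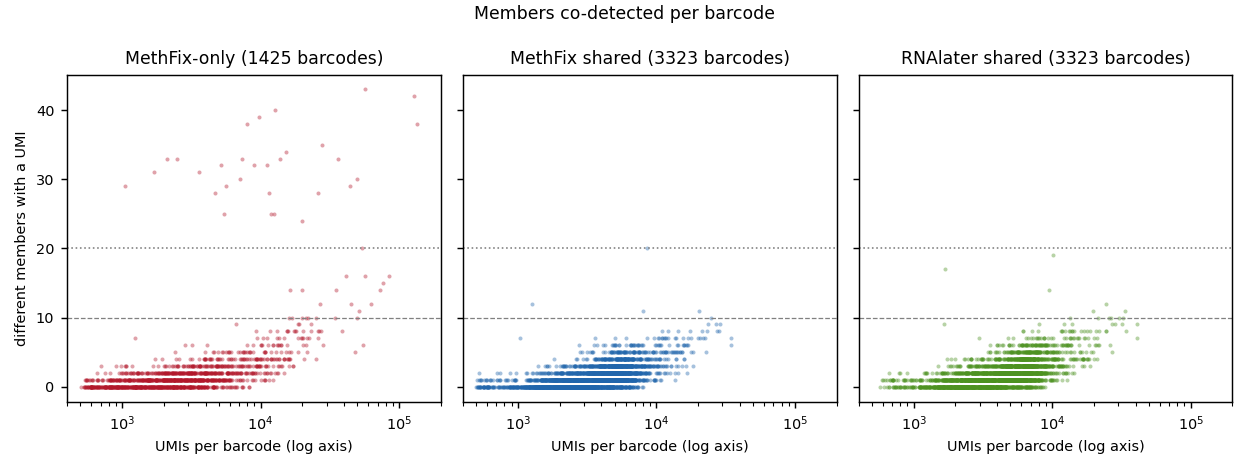
Number of different members with at least 1 UMI (vertical) against total UMIs (log axis) for each barcode, in MethFix-only, MethFix shared and RNAlater shared barcodes, with lines at 10 and 20 members. A group of MethFix-only barcodes with 24 to 43 members lies above the other barcodes of all 3 sets.

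The groups were also compared at equal depth. After each barcode was thinned to 1000 UMIs, the 31 MethFix-only barcodes with 20 or more members held a median of 7 members, from 0 to 29. The 20 with 10 to 19 held a median of 0.5 and at most 2, and the 1190 with fewer than 10 that were deep enough a median of 0. Because the same members chose these groups before thinning, the order of the groups is a description. At that depth, 14 of 1241 MethFix-only barcodes held 10 or more members, 1 of 3204 MethFix shared barcodes and 1 of 3261 RNAlater shared barcodes. Thinning left out 184 MethFix-only, 119 MethFix shared and 62 RNAlater shared barcodes.

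The 32 barcodes were 0.674% of the MethFix barcodes and held 3130 member UMIs, or 22.2% of all. As many were deep, they also held 747435 of the 21027671 MethFix UMIs of all genes. Their member level was 4188 CPM against 670 over all MethFix barcodes. Within the MethFix-only set, such barcodes held 48.5% of the member UMIs. The barcode with the most held 205. Because members chose these barcodes, those shares are a description.

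To look at each gene without using it to choose the barcodes, its UMIs were counted in MethFix barcodes with 20 or more other members. For 25 of the 56 members at least 50% of the UMIs lay there, for 12 it was 25% to 50%, and for 19 under 25%. Among the 25 were Rsph4a, Cdhr3, Dnah1, Cfap58, Cfap221, Tekt1 and Ccdc40. They became members only through MethFix-only barcodes, which hold nearly all of the chosen barcodes, so their shares are a description. The share of all features at 50% or more was not counted. Cdhr3 had 88 of 95 UMIs in such barcodes (92.6%) and Dnah12 had 303 of 331 (91.5%). Spag17 followed with 83.0%, Dnah9 with 81.3% and Dnah5 with 81.0%. At the other end, Cfap54 had 235 of 3722 UMIs there (6.31%), Dnah11 85 of 1009 (8.42%), Cfap20 5.45%, Cfap36 3.32% and Dnah17 1 of 75 UMIs (1.33%). Such shares are read against the 747435 of 21027671 MethFix UMIs of all genes that the 32 barcodes held. The genes with low shares were nonetheless found in many of these barcodes. Cfap54 had a UMI in 30 of the 30 barcodes with 20 or more other members and Dnah11 in 27 of 31, as did Dnah12 in 28 of 31 and Cdhr3 in 26 of 31.

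**Figure D3:**
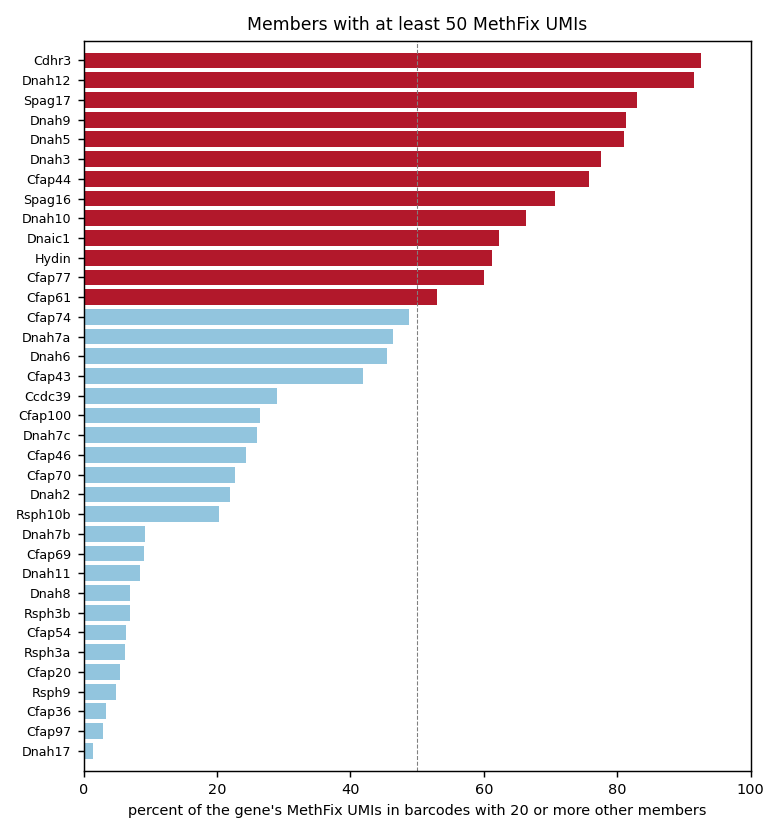
Percent of each gene's MethFix UMIs that lay in barcodes with 20 or more other members, for members with at least 50 MethFix UMIs. Bars in red reach 50% or more, from Cfap61 at 52.9% to Cdhr3 at 92.6%, and bars in blue run down to Dnah17 at 1.33%.

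Barcodes with more dynein genes also held more other members, without depth held equal. When barcodes were chosen only by the 17 dynein genes, 67 MethFix-only barcodes held at least 3 of them, and these held a median of 11 of the 39 other members, with 5 or more in 52 of 67 (77.6%). In MethFix shared barcodes, 28 held at least 3 dynein genes, with a median of 3 other members and 5 or more in 6 of 28 (21.4%). The depths differed, with a median of 15362 UMIs in the former and 6792.5 in the latter. MethFix-only barcodes with 1 or 2 dynein genes held 5 or more other members in 36 of 363 (9.92%), at a median of 4319 UMIs. Depth thus differed within the set as well, and its part was not tested. Dnah12 and Cdhr3, which had the highest shares above, were found in 50 and 32 MethFix barcodes. Both were found in 28, which is 56.0% of the former and 87.5% of the latter.

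Axonemal genes outside the rule were also high in these barcodes. Over features that are no members, 6.19% were higher and 6.5% lower past 2-fold in the 56 cilia-rich barcodes against all other MethFix barcodes, and 9.17% were higher past 2-fold in the 32 barcodes with 20 or more members. Of 16 tested genes of a list of other axonemal proteins, 14 were higher past 2-fold in either comparison, with a median ratio of 8.84 at 20 or more members. Spef2, needed for central apparatus assembly, had 138 UMIs in the 32 barcodes, 7 in those with 10 to 19 members, 25 in other MethFix-only and 37 in other MethFix shared barcodes. Of 8 docking and light chain genes, 6 were higher past 2-fold, among them Armc4, an outer-arm docking protein, with 70 UMIs in the 32 barcodes and a ratio of 16.2 (11.9 to 22.0). Of 6 tested assembly factors, which preassemble the arms in the cytoplasm, 3 were higher past 2-fold, Dnaaf3, Lrrc6 and Zmynd10, while Dnaaf5 had a ratio of 1.08 (0.635 to 1.73). Of 5 tested regulators of multiciliation, 3 were higher past 2-fold, among them the transcription factor Trp73 with 13 UMIs in the 32 barcodes, 1 in other MethFix-only and 4 in other MethFix shared barcodes. Regulators of that list with too few UMIs to be tested were scarce. In the 32 barcodes Gmnc had 3 UMIs, and Mcidas, Ccno and Ccdc67 had 0. Rfx3, a factor of ciliary genes in many cell types, had a ratio of 1.42.

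The 10 features with the highest ratios of cilia-rich to other MethFix barcodes, among non-members with at least 50 UMIs in the former, were Ccdc108, Ccdc180, Tmem212, Ect2l, Gm626, Ttc21a, Gm12695, Zbbx, Wdr95 and Ttc29. Ccdc108 had 83 UMIs against 1 and Tmem212 had 88 against 4. In RNAlater, these 10 had between 0 and 17 UMIs each.

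Markers of motile ciliated cells other than members moved the same way. Of 8 such markers, 7 were tested and 6 were higher past 2-fold, with a summed level of 309 CPM in barcodes with 20 or more members, 8.25 with 10 to 19, 6.02 in other MethFix-only and 5.30 in other MethFix shared barcodes. The markers are not independent of the lists above. Dynlrb2 is also a light chain gene there, Ak7 is also in the list of other axonemal proteins, and Tmem212 was among the features with the highest ratios. At least 1 of the 8 markers was found in 30 of the 32 barcodes and in 5 of 24 with 10 to 19 members. In MethFix-only barcodes with under 10 members and over 8000 UMIs, whose median was 11820 UMIs against 11358.5 in the 32, it was 14 of 157 (8.92%).

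Few genes of a list of intraflagellar transport and the primary cilium passed 2-fold, but its summed level differed with the depth of the barcodes. Of 29 intraflagellar transport and primary cilium genes, 0 passed 2-fold in cilia-rich barcodes and 1, Dync2h1, the heavy chain of the retrograde transport dynein, in barcodes with 20 or more members. The list summed to 1778 CPM in the latter and to 1309 and 1345 in other MethFix-only and MethFix shared barcodes. It was higher in the 11 of these barcodes with at most 8000 UMIs, at 3873 CPM, than in the 21 deeper ones, at 1640.

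**Figure D4:**
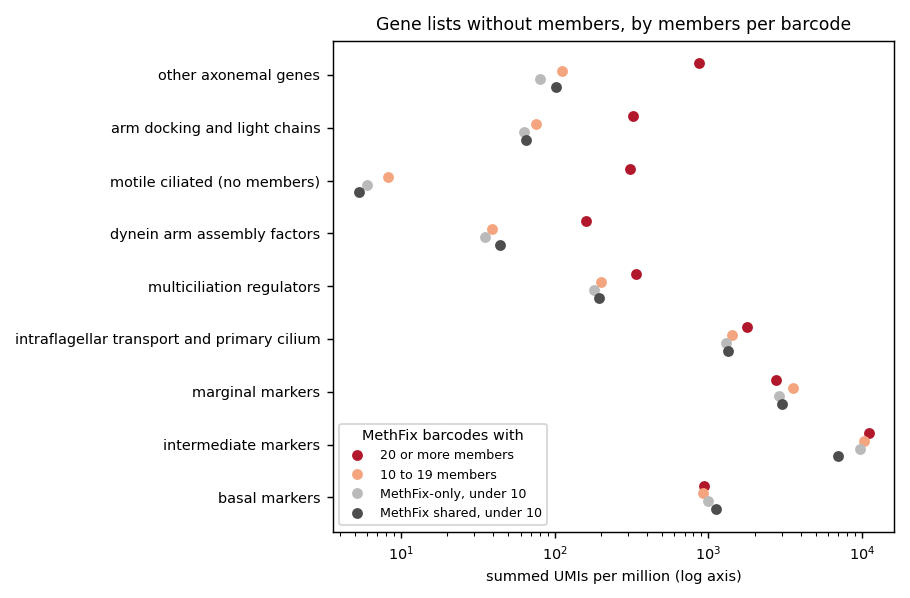
Summed CPM (log axis) of gene lists that hold no members, in MethFix barcodes with 20 or more, 10 to 19 or under 10 members. Lists of axonemal and motile ciliated genes are highest with 20 or more members, and markers of marginal, intermediate and basal cells lie within 2-fold of each other across the groups.

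Markers of strial cells were present in the same barcodes. With 20 or more members, marginal cell markers summed to 2752 CPM and intermediate cell markers to 11075, against 2881 and 9726 in other MethFix-only and 3003 and 7019 in other MethFix shared barcodes. In the 11 barcodes with at most 8000 UMIs the values were 1904 and 4652. Of the 56 cilia-rich barcodes, 44 exceeded 8000 UMIs and 10 passed the filters of the study, none of which Scrublet called a doublet. After clustering, 3 of the 10 fell into a cluster of 102 MethFix nuclei, and the other 7 into one of 76 nuclei that was not compared. The cluster of 76 was named neuron-like by its marker score. Its 10 leading genes were mixed, with Dnah12 and Stab1 among them and no marker of the neuron list. The cluster of 102 nuclei was named marginal-like by its marker score, but none of its 10 leading genes was a marginal marker and Fgf14, Kcnd2, Kcnip4 and Rbfox1 led both clusters. The part of mixed or ambient RNA in these barcodes was not tested.

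Lists of secretory and basal epithelia, choroid plexus and spermatids were mostly low, and a list of general epithelial genes was not. The latter, Epcam, Cdh1, Krt8, Krt18 and Krt19, summed to 369 CPM in the 32 barcodes. It summed to 377 in other MethFix-only and 548 in other MethFix shared barcodes, and 0 of its 5 genes were higher past 2-fold. The basal epithelium genes Krt5, Krt14, Krt15 and Trp63 had 1 UMI together in the 32 barcodes. Of the 11 genes of secretory airway or middle ear epithelium, Scgb1a1, Scgb3a1, Scgb3a2 and Muc5ac had 0 UMIs in either matrix, and Muc5b had 0 in the cilia-rich barcodes. Bpifa1, a secreted airway protein, had 18 UMIs in the 32 barcodes, 19 in those with 10 to 19 members, 104 in other MethFix-only barcodes and 3 in other MethFix shared barcodes. These were 24.1, 22.4, 19 and 0.215 CPM, so Bpifa1 was similar across the first 3 groups, which are mostly MethFix-only barcodes, and low in the last. The 7 spermatid genes had 0 UMIs in MethFix, and the 32 barcodes had 0 of the choroid plexus genes Kcne2, Ttr and Folr1. The other choroid plexus genes, Kl, Otx2 and Clic6, had 11, 4 and 3 UMIs there, and the list summed to 24.1 CPM against 13.1 in other MethFix-only and 28.1 in other MethFix shared barcodes. Of its 4 tested genes, 1 was higher past 2-fold in cilia-rich barcodes and 0 in the 32.

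In shared barcodes, single nuclei repeated across the matrices. The barcode with most members held 20 of them in MethFix and 19 in RNAlater, 18 of which were the same, from 8497 and 10072 UMIs. A shallow barcode held 12 members in MethFix from 1254 UMIs and 17 in RNAlater from 1683 UMIs, of which 9 were the same. The other 10 barcodes that passed 10 members in either matrix had between 6 and 11 in MethFix and between 10 and 14 in RNAlater.

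Promoters were searched for the core of the site read by RFX factors, GTTGCC on either strand, which is a known regulator site of ciliary genes. RefSeq windows on GRCm38.p6 were at hand for 47 of the 56 members, and the 250 bases before each start were read. The motif was found in 16 of 47 members (34.0%) and in 11.8% of all 27025 gene symbols with a window. It was found in members with at least 50% of their UMIs in barcodes with 20 or more other members in 8 of 23 cases (34.8%) and in the others in 8 of 24 (33.3%). The copies Dnah7a, Dnah7b and Dnah7c count as 3 of the latter. The forkhead motif GTAAACA was found in 3 of 47 members (6.38%), Cfap20, Cfap43 and Dnah17, and in 3.54% of all symbols. A match is a description of the letters and not of binding.

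The 80-base stretches below are from the 6 members with the motif that had the highest share of UMIs in those barcodes, each 5′ to 3′ on the strand of its gene and before its RefSeq start, with GTTGCC or its reverse complement GGCAAC in capitals. They lie at chr12:33092876-33092955 (minus strand) for Cdhr3, chr16:44394719-44394798 (plus) for Cfap44, chr19:47937613-47937692 (plus) for Cfap58, chr1:69826827-69826906 (plus) for Spag16, chr5:124725005-124725084 (plus) for Dnah10 and chr8:110266897-110266976 (plus) for Hydin, all in GRCm38.p6.
Cdhr3: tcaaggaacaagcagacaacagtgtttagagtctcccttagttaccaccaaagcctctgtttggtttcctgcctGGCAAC
Cfap44: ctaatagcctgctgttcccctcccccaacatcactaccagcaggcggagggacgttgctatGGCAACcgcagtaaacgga
Cfap58: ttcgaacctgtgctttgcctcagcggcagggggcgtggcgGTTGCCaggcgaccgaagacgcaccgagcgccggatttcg
Spag16: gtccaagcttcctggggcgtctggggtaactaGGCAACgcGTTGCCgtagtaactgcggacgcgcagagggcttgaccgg
Dnah10: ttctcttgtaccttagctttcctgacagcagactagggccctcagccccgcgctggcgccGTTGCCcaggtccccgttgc
Hydin: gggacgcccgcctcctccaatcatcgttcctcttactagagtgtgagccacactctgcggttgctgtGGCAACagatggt
In Spag16 the reverse complement and the motif stand next to each other, with 2 bases between them. In Cdhr3 the match ends at the last base before the start, and in Hydin and Dnah10 it begins 13 and 20 bases before it.

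Members were also compared between classes of strial nuclei. Clusters of nuclei that passed the filters were named from markers, with the members left out of the genes used for clustering, and compared over 6 classes: marginal-like, intermediate-like, basal-like, spindle-like, root-like and Reissner membrane-like. Summed member levels in MethFix were 931 CPM (817 to 1055) in 97 spindle-like nuclei, 755 (672 to 845) in 155 Reissner membrane-like, 710 (682 to 739) in 855 intermediate-like, 640 (618 to 662) in 1183 marginal-like, 381 (304 to 471) in 72 root-like and 354 (329 to 381) in 750 basal-like nuclei. The intervals of spindle-like and Reissner membrane-like nuclei overlapped, as did those of Reissner membrane-like and intermediate-like nuclei and those of root-like and basal-like nuclei. RNAlater gave the same order, at 988, 816, 783, 656, 409 and 382 CPM. The sums lean on Cfap54. In MethFix it held 785 of 1186 member UMIs in the largest intermediate-like cluster and 25 of 338 in the largest basal-like cluster. Over the whole classes, Cfap54 alone differed between intermediate-like and basal-like nuclei by more than the summed levels did, in both libraries. The place of intermediate-like above basal-like nuclei thus rests on Cfap54. The full order of classes without it was not computed.

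Of 38 members tested in both libraries, 22 were higher past 2-fold in at least 1 class against the other 5, in both libraries and with more than 3 UMIs in the class in each. The share of all features past 2-fold in at least 1 class was not counted, so the 22 are a description. By class these were 8 members in marginal-like nuclei (10.7% of all features tested), 2 in intermediate-like (8.83%), 7 in basal-like (11.7%), 5 in spindle-like (5.96%), 2 in root-like (6.53%) and 4 in Reissner membrane-like nuclei (6.77%). The shares of members were 21.1%, 5.26%, 18.4%, 13.2%, 5.26% and 10.5% in the same order. Since both libraries share barcodes, a call in both is no second measurement. Levels below leave out the 3 cilia-rich nuclei of the marginal-like class, and the counts of members per class were the same without them. Without the whole cluster of 102 nuclei that held them, marginal-like MethFix nuclei had 617 CPM and the same 28 pairs of member and class were past 2-fold.

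**Figure D5:**
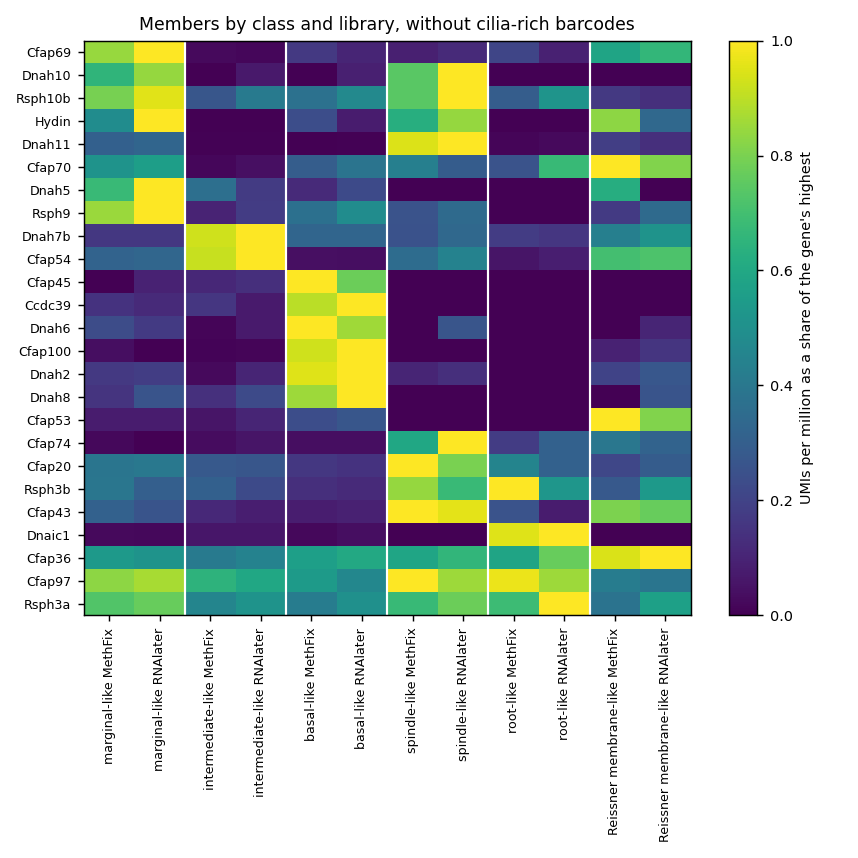
CPM of members in 6 classes and 2 libraries without cilia-rich barcodes, each row divided by the gene's highest value, for members past 2-fold in a class and the 8 with most UMIs. Cfap54 and Dnah7b peak in intermediate-like nuclei, Dnah11 in spindle-like nuclei, and Dnah2, Dnah6, Dnah8 and Cfap100 in basal-like nuclei.

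Intermediate-like nuclei, the melanocyte-derived cells of the stria, were marked by Cfap54 and Dnah7b. Cfap54 reached 433 CPM (411 to 456) in the MethFix and 472 (448 to 498) in the RNAlater matrix, next to 331 (277 to 392) and 340 (290 to 395) in Reissner membrane-like nuclei. It fell through spindle-like nuclei at 168 and 210, marginal-like at 150 and 156, and root-like at 27.2 and 39.7, to basal-like nuclei at 19.1 (13.6 to 26.0) and 16.7 (11.8 to 23). Spindle-like and marginal-like levels had overlapping intervals in both libraries, and so had root-like and basal-like levels. It was found in 41.4% of intermediate-like MethFix nuclei at a median of 4029 UMIs and in 4.67% of basal-like nuclei at a median of 2486.5. Dnah7b stood at 70.5 (61.9 to 80.04) and 75.9 (66.1 to 86.7) in intermediate-like nuclei against 12.4 in marginal-like nuclei of either library.

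Dnah11 had a different pattern, highest in spindle-like nuclei. Its CPM in spindle-like nuclei was 286 (225 to 359) for MethFix and 302 (230 to 390) for RNAlater. It was 92.3 (84.1 to 101) and 98.0 (88.5 to 108) in marginal-like nuclei, and 55.5 (34.8 to 84.1) and 40.9 (25.0 to 63.2) in Reissner membrane-like nuclei. In intermediate-like nuclei it was at 2.07 and 1.76. Among 750 basal-like MethFix nuclei it had 0 UMIs, with an exact upper bound of 1.76 CPM, and among 603 in RNAlater it had 4. It was found in 40.2% of spindle-like MethFix nuclei at a median depth of 2453 UMIs, close to that of basal-like nuclei. Dnah11 overlaps Cdca7l on the other strand, and whether counting used strand is not given in the sources used here.

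Marginal-like nuclei, the secretory layer facing the endolymph, were higher in Cfap69, Rsph9, Rsph10b, Cfap70, Dnah10, Dnah5 and Hydin besides Dnah11. Cfap69 stood at 36.6 (31.5 to 42.2) and 43.3 (37.1 to 50.3) in MethFix and RNAlater, and at 1.18 and 0.703 in intermediate-like nuclei. Rsph9 stood at 25.2 (21.01 to 29.9) and 29.6 (24.5 to 35.5), and at 2.95 and 5.27 in intermediate-like nuclei. Rsph10b overlaps Pms2 on the same strand, and Rsph9 overlaps Mrps18a on the other. Hydin, Dnah5 and Dnah10 had only 21, 21 and 18 MethFix UMIs over the 6 classes. Outside the classes, Hydin stood at 191.6 CPM (52.2 to 490.5) in an unnamed MethFix cluster of 8 nuclei, from 4 UMIs. Loxhd1, Tmc1 and Slc26a5 were among the leading genes of that cluster, and no marker of the strial classes was. Hydin stood at 2.21 and 4.26 in the 2 largest marginal-like clusters.

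Basal-like nuclei, the tight barrier layer, held the lowest summed level with Cfap54 counted, and Cfap54 added little to it. Without Cfap54, the summed level of intermediate-like nuclei would lie below theirs. Past 2-fold were 7 members: Dnah2, Dnah6, Dnah8, Ccdc39, Cfap45, Cfap53 and Cfap100. Dnah2 stood at 35.7 (28.1 to 44.8) and 37.5 (29.9 to 46.5) in MethFix and RNAlater against 6.30 and 6.84 in marginal-like nuclei. Cfap100, which belongs to the complex that regulates an inner arm, stood at 24.8 (18.5 to 32.5) and 26.7 (20.3 to 34.4) and at 0.984 and 0 in marginal-like nuclei. Dnah8 stood at 20.0 and 23.5, Dnah6 at 19.5 and 16.7, and Ccdc39 at 13.3 and 14.9. Unnamed MethFix clusters outside the 6 classes stood higher for Dnah2 and Dnah8. Dnah2 was at 127.7 (63.7 to 228.5) in one of 38 nuclei, and Dnah8 at 71.5 (43.1 to 111.7) in one of 107. Within the basal-like class, Dnah2 was at 65.1 (44.5 to 91.9) in a MethFix cluster led by Sorcs3 and Col27a1. It was at 25.7 (17.1 to 37.1) and 29.0 (16.2 to 47.8) in the clusters led by Gm12153. For Cfap53 the intervals of its ratio of 2.03 in MethFix (0.553 to 6.33) and 2.10 in RNAlater reached below 1.

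Spindle-like and Reissner membrane-like nuclei were both higher in Cfap43. Cfap43 overlaps Itprip on the same strand, and the part of that overlap in its counts, here and above, was not tested. Cfap43 stood at 53.4 (29.2 to 89.6) and 51.2 (24.5 to 94.1) in spindle-like nuclei and at 42.9 (25.0 to 68.7) and 40.9 (25.0 to 63.2) in Reissner membrane-like nuclei, with 16.5 and 13.9 in marginal-like nuclei. Cfap20 stood at 141 (99.3 to 194) and 113 (70.6 to 170) in spindle-like nuclei against 55.1 and 56.7 in marginal-like nuclei. Dnaic1 was found in 5 of 72 and 6 of 69 root-like nuclei, at 22.7 and 23.8 CPM, and at 0.590 and 0.507 in marginal-like nuclei. Cfap74 was higher in spindle-like and Reissner membrane-like nuclei from 4 UMIs each in MethFix. Cfap53 and Cfap70 were also past 2-fold in Reissner membrane-like nuclei. For Cfap70 the ratios there were 3.06 (1.18 to 6.67) in MethFix and 2.26 (0.870 to 4.94) in RNAlater.

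Cfap36, Cfap97 and Rsph3a, the other members with most UMIs in these nuclei, passed 2-fold in no class. Cfap36 lay between 31.9 and 73.2 CPM over the classes in MethFix and Rsph3a between 15.1 and 28.9. Members with at least 50% of their UMIs in barcodes with 20 or more other members varied in these classes without cilia-rich nuclei. Spag16 had 47 UMIs over the 6 classes in MethFix and 62 in RNAlater, and Dnah5 had 21 and 20. Cdhr3 and Dnah12 had fewer. Dnah12 had 8 UMIs in marginal-like, 4 in intermediate-like and 0 in basal-like MethFix nuclei. Cdhr3 had 2 in marginal-like MethFix nuclei and 0 in intermediate-like and basal-like nuclei of both libraries. Foxj1 had 8 in marginal-like MethFix nuclei and 6 in RNAlater.

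Between the matrices, RNAlater had fewer UMIs of the members that sat in MethFix-only barcodes. Over all barcodes, 17 of 56 members were lower and 0 higher past 2-fold in RNAlater than in MethFix, against 3.17% and 3.44% of all features tested. The lowest were Cdhr3 at 0.0250 and Dnah12 at 0.0395. Of the 17, Rsph4a, Cdhr3, Dnah1, Cfap58, Cfap221, Tekt1 and Ccdc40 became members through MethFix alone. Their calls here are therefore a description. In barcodes found in both matrices, 2 of 51 members were higher past 2-fold (2.8% of all features), Cfap99 from 4 and 20 UMIs and Rsph1 from 5 and 15, and 0 were lower (1.68%). In those barcodes the summed ratio of RNAlater to MethFix was 1.07, and Cfap54 had 1.01 (0.963 to 1.07), Dnah11 1.03 (0.930 to 1.14) and Dnah12 0.827 (0.325 to 2.10).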

How the data were processed

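The authors deposited UMI count matrices of single-nucleus RNA-seq, 1 per library, as raw counts per gene and barcode. The submitters' processing notes name Cell Ranger 3.0.1 and Scanpy 1.4.5 with GRCm38/mm10. Whether intronic reads or strand were counted is not given in the sources used here. A further control dataset was not analysed here.

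Levels were CPM, the UMIs per 1000000 UMIs of a set of barcodes, with exact Poisson or Clopper-Pearson intervals at 95%. Ratios were taken with exact conditional binomial intervals for features with at least 10 UMIs over both sets, and a call means past 2-fold. Where a set held 0 UMIs, the bound used a floor of 3 counts over the set. With 1 library per method and shared barcodes there was no test and no p-value. The members and gene lists were chosen with earlier results of these data known.

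Classes came from nuclei with at least 200 genes, at most 8000 UMIs and at most 10% mitochondrial UMIs, after removal of Scrublet doublets (224 MethFix and 18 RNAlater), with genes in at least 3 nuclei. Clustering used 4000 variable genes without members, 30 components, 10 neighbours and Leiden resolution 1 (MethFix) or 1.5 (RNAlater), and clusters were named from marker lists. A class call also needed more than 3 UMIs in the class in each library, a condition chosen after the values were seen. Named genes were the members with most UMIs in each role, the 5 highest and 5 lowest ratios among members with at least 50 UMIs, the 8 members with most UMIs in the classes, and the 10 non-members with the highest ratios in cilia-rich barcodes. Other genes were named after their values were seen. Python 3.11.15, scanpy 1.11.5, leidenalg 0.10.2, scipy 1.17.1 and, for other scalings, edgeR 4.0.16 and DESeq2 1.42.0 in R 4.3.3 were used. Ratios and their intervals were tested on simulated counts, and thinning was checked on MethFix barcodes. The other steps had no such test.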

Additional observations from a re-analysis of the deposited data

How the results depend on the processing

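No paired analysis was possible because each preservation method had 1 library. Taking out the cilia-rich barcodes lowers the members by construction. The summed ratio of MethFix-only to shared fell from 1.62 to 0.928, and MethFix-only members from 899 to 508 CPM. The ratio was 0.941 without barcodes with 20 or more members, an alternative added after seeing the data. Members higher past 2-fold went from 32 of 55 tested to 3 of 47 (Dnah9, Tekt1 and Dnah12) in either case. Of all features, 4.73% were higher at first, and 4.01% and 3.85% in these settings. Spag17 stood at 0.979 without cilia-rich barcodes. The summed ratio was 1.30 over barcodes that passed the filters, with 21 of 47 members and 4.73% of all features higher. It was 1.45 with Scrublet too (shared level 612 CPM), 1.50 up to 8000 UMIs and 1.46 up to 10% mitochondrial UMIs. It was 1.40 without the 5 barcodes with most member UMIs and 1.56 on totals free of mitochondrial genes. With TMM it was 1.77 and with DESeq2 size factors 1.78. At 50 or more UMIs 18 members were higher. That count, and the counts of members lower in RNAlater given next, come without the share of all features and are a description. For RNAlater over MethFix, the summed ratio of 0.863 became 0.886 on totals free of mitochondrial genes, 0.841 with TMM and with DESeq2 size factors, 0.973 after the filters (6 members lower), 1.06 without cilia-rich barcodes and 1.07 without those with 20 or more members (1 member lower in both). In those last settings Dnah9 stood at 1.23 and 1.10 and Spag17 at 1.67 and 1.63. Cilia-rich MethFix-only and shared barcodes, 51 and 5 at 10 members, were 141 and 181 at 5 members, 31 and 1 at 20, 6 and 0 thinned to 500 UMIs, 14 and 1 at 1000, 15 and 1 at 2000, 24 and 0 on Dnah and Dnai genes alone, and 9 and 1 after the filters. Without Dnah and Dnai genes 1 shared barcode was left. Marginal-like MethFix nuclei, at 640 CPM, gave 605 without cilia-rich barcodes, 617 without the cluster of 102 nuclei that held them (added after seeing the data), 676 without Scrublet, and 773 both at Leiden resolution 0.5 and with members among the variable genes, and intermediate-like nuclei gave 753 in shared barcodes alone. The 28 pairs of member and class became 24 to 28. The cause of these moves was not tested where the setting does not remove members itself. Members with few UMIs, such as Rsph4a, Foxj1 and Dnaic2, are limited by depth.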
